A study of Mus musculus with 51 samples.

Results

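A set of 8 libraries followed Smchd1 maternal null cells across the step in which the growth factor GDF11 was added to a differentiation towards neuromesodermal progenitors (NMPs). They are the 4 maternal null libraries of day 3, taken before GDF11, and the 4 of day 4, taken after 24 h of GDF11, picked by the day and genotype in the sample labels out of 51 samples in the series and 45 in its time course. The values were log2 RPKM, that is reads normalised to transcript length and library size on a log2 scale, so 1 unit is a doubling. The deposited tables hold 39 Hox genes and a panel of 34 factors of pluripotency and early differentiation, 73 genes in all. The cells were male mouse embryonic stem cells (mESCs) of C57BL/6/Cast F1 background with the genotype Smchd1[del/+], in which Zp3-Cre, a recombinase driven by an oocyte promoter, had removed the maternal Smchd1 allele in the egg, while the paternal allele was intact. The controls were Smchd1[fl/+] cells of the same background, with 8 libraries of the same 2 days. All 16 cultures had received basic FGF at 10 ng/mL from day 0 and the Wnt activator CHIR99021 at 5 µM from day 2. GDF11 was present at 50 ng/mL from day 3 only in the day 4 cultures. No day 4 culture without GDF11 was analysed here, so the effects of GDF11 and of 24 h more in culture cannot be told apart. By the labels the first 3 replicates of each group are of line 1 and replicate 4 is of line 2, while the study describes technical replicates of a pair of lines. The p-values therefore measure the spread between these libraries, which may be technical in part.

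Hox genes encode homeodomain transcription factors that give cells their position along the head-to-tail axis. The clusters HoxA to HoxD, on chromosomes 6, 11, 15 and 2 of the mouse, hold paralogs numbered from the anterior end, and in the embryo low-numbered genes start first and high-numbered genes later, in the tailbud. GDF11 is a secreted ligand of the TGF-beta family which acts through SMAD2 and SMAD3 and is known for its part in the change from trunk to tail. SMCHD1 is a chromatin protein of the SMC family that keeps the inactive X chromosome, imprinted clusters and Hox clusters silent, and the embryo first draws it from the egg. NMPs are the bipotent cells of the caudal epiblast that supply spinal cord and paraxial mesoderm, and are recognised by joint expression of T (Brachyury, listed as Tbra) and Sox2 with Nkx1-2 and Cdx2.

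Depth differed widely between these libraries, from 3.48 to 43.8 M counted reads in maternal null cells, a range of 12.6-fold, as computed from the values and the exon lengths of the annotation. A gene with no read is listed at the value of 0.9 reads, so low values depend on depth and are given as reads where it matters. At day 3 all 4 NMP markers were present in every maternal null library, with log2 RPKM between 6.22 and 7.48 for T, 3.23 and 4.54 for Sox2, 4.11 and 6.50 for Nkx1-2, and 5.28 and 6.06 for Cdx2. Markers of paraxial mesoderm (Tbx6, Msgn1, Meox1), of neural progenitors other than Sox2 (Sox1, Pax6) and of endoderm (Sox17, Foxa2), as well as Smchd1 itself, were not analysed here. These are bulk libraries, in which fewer cells of a type and less RNA per cell cannot be told apart.

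Between day 3 and day 4, 13 Hox genes of the HoxA, HoxC and HoxD clusters rose in maternal null cells, the steepest being Hoxd11, Hoxd10 and Hoxc10. Of 39 Hox genes, 13 rose (33.3%, limma, adjusted p under 0.05) and 0 fell (0.0%). A falling change had an unadjusted p under 0.05 in 1 gene, and limma with voom weights on the reads recovered from the values also called 13 genes that rose and 0 that fell. With log2(RPKM + 1) limma called 11 genes that rose and 1 that fell. In 10 of the 39 genes (25.6%) every day 4 library lay above every day 3 library, and in 0 (0.0%) every day 4 library lay below. The median change over all 39 genes was 0.79, and 29 of the 39 changes were above 0. By paralog class, 2 of 12 Hox1-4 genes, 6 of 15 Hox5-9 genes and 5 of 12 Hox10-13 genes rose, with median changes of 0.58, 0.87 and 1.06. With the 3 Hox10-13 genes that had no read at day 3 but reads at day 4 set to their lower bound, and Hoxc12 left out, the median of the class was 3.32. This value mixes fitted changes with bounds from pooled reads, so it is not comparable with the other medians. The steps from Hox9 to Hox11 held most of the calls, with 8 of 10 genes called and a median change of 3.78.

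**Figure D1:**
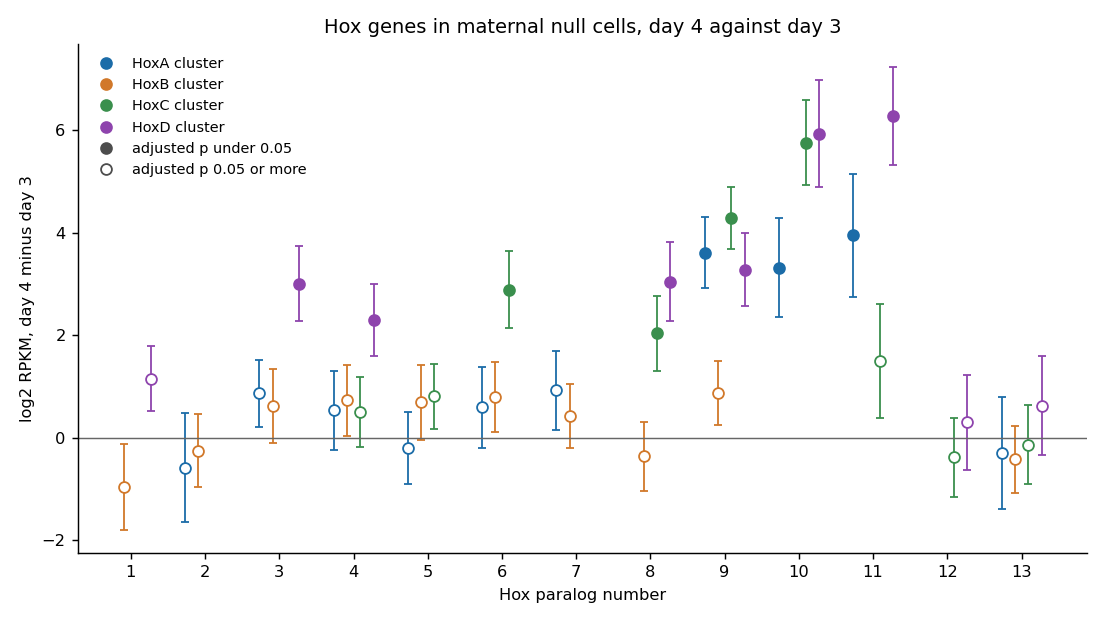
Change of log2 RPKM from day 3 to day 4 in maternal null cells for the Hox genes described here, ordered by paralog number and coloured by cluster, with bars of 1 standard error from limma. Filled points passed an adjusted p of 0.05 and are all above 0, with Hoxd11 highest at 6.28, while the genes of paralog groups 1, 2, 5, 7, 12 and 13 have open points.

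At the anterior end of the clusters no call was made. Hoxb1 changed by -0.95 (SE 0.84, adjusted p = 0.486). It ranged from 3.49 to 4.53 at day 3 and from 0.95 to 4.72 at day 4, where replicates 3 and 4 lay below every day 3 library. Hoxd1 had a change of 1.15 (SE 0.64, adjusted p = 0.239).

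Among the Hox2 genes, Hoxa2 had the larger change. Its log2 RPKM was 0.27, 1.71, -0.68 and 1.18 at day 3 and 1.16, 1.95, -3.72 and 0.75 at day 4. The change of -0.59 (SE 1.06, adjusted p = 0.703) turned positive, to 0.66, without day 4 replicate 3, in which the gene had 2 reads.

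In paralog groups 3 to 8 the rise was carried by the HoxC and HoxD clusters. Hoxd3 had log2 RPKM of -3.00, -1.92, -1.72 and -0.54 at day 3 and 2.37, 1.57, 0.10 and 0.78 at day 4, without overlap (change 3.00, SE 0.73, adjusted p = 0.00579). Hoxd4 was at -1.13, 0.11, 0.24 and 1.29 and then at 3.11, 3.03, 1.48 and 2.12, again without overlap (change 2.30, SE 0.70, adjusted p = 0.0176). These are not independent results, since exons annotated to Hoxd4 or Gm28230 on the same strand cover 62.3% of the exon bases of Hoxd3, and exons of Hoxd3 or Gm28230 cover 52.3% of those of Hoxd4. How reads were split between them is not given in the sources used here, so each change is uncertain on its own. Without day 3 replicate 1 or day 4 replicate 1, Hoxd4 no longer passed the test. Their neighbours of the same paralog number moved less, with changes between 0.51 and 0.87 for Hoxa3, Hoxb3, Hoxa4, Hoxb4 and Hoxc4, none of which passed.

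Hoxc6 is a trunk gene of the HoxC cluster. Its log2 RPKM was -1.55, 0.92, 0.54 and -0.74 at day 3 and 2.91, 3.91, 1.59 and 2.31 at day 4, a change of 2.89 (SE 0.75, adjusted p = 0.00763). Hoxd8 went from -0.72, 1.60, 0.70 and 0.45 to 4.59, 4.64, 2.89 and 2.09, a change of 3.04 (SE 0.77, adjusted p = 0.00687). Neither gene overlapped between the days. For Hoxc8 the groups did overlap, with a change of 2.03 (SE 0.73, adjusted p = 0.0444), and the call was lost in 9 of the 18 alternatives run. The gene with the largest change in group 5 was Hoxc5, with 1.12, 1.59, 1.70 and 1.57 at day 3 and 2.91, 3.02, 1.44 and 1.84 at day 4 (change 0.81, SE 0.63, adjusted p = 0.453). In group 7 it was Hoxa7, with 0.88, 2.68, 2.03 and 0.58 and then 3.23, 3.81, 1.10 and 1.74 (change 0.93, SE 0.77, adjusted p = 0.486). Both overlapped between the days, with day 4 replicate 3 of Hoxc5 and day 4 replicates 3 and 4 of Hoxa7 within the range of day 3. The other genes of groups 5 to 8, Hoxa5, Hoxb5, Hoxa6, Hoxb6, Hoxb7 and Hoxb8, had changes between -0.36 and 0.79 and did not pass.

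Hox9 genes mark the passage from trunk to lumbar level. Hoxc9, which patterns thoracic segments and motor neurons, had the smallest p of all Hox genes. It stood at -1.65, -2.55, -1.35 and -2.08 at day 3 and at 2.63, 2.51, 2.47 and 1.93 at day 4, with a spread of 0.52 (SD, n = 4) and 0.31 (SD, n = 4) around a change of 4.29 (SE 0.60, adjusted p = 0.000127). The 4 libraries of each day were closer to each other here than in any other called Hox gene, and no other annotated gene covers its exons. In RPKM this was 0.280 ± 0.0964 (SD, n = 4) against 5.31 ± 1.03 (SD, n = 4).

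Hoxa9 was at -1.70, -0.33, -0.18 and -0.69 and then at 4.02, 3.30, 2.13 and 2.09 (change 3.61, SE 0.69, adjusted p = 0.000881). Hoxd9 was at -0.62, 1.30, 0.84 and 1.01 and then at 4.42, 4.92, 2.70 and 3.62 (change 3.28, SE 0.71, adjusted p = 0.00246). Both were higher in every day 4 library than in any of day 3. Hoxb9 already had the highest level of the group at day 3, 3.18 ± 0.72 (SD, n = 4) on the log2 RPKM scale, and reached 4.05 ± 0.32 (SD, n = 4) at day 4, a change of 0.87 (SE 0.63) that did not pass (adjusted p = 0.438).

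Of the 6 Hox10 and Hox11 genes, which specify lumbar and sacral levels, 5 rose from few or no reads. For these genes whole reads are given, which are not corrected for depth. Day 3 replicates 1 to 4 had 43.8, 7.22, 6.30 and 3.48 M counted reads, and day 4 replicates 1 to 4 had 14.4, 9.61, 14.9 and 9.70 M. Day 3 replicates 2 to 4 were thus shallower than every day 4 library, and few reads there are in part due to depth. Hoxc10 had 13, 0, 0 and 0 reads in day 3 replicates 1 to 4 and 306, 372, 74 and 28 at day 4. Hoxd10 had 1, 0, 0 and 0 reads and then 210, 316, 40 and 11. Hoxd11 had 1, 1, 0 and 0 reads and then 173, 331, 83 and 18. In each of these 3 genes every day 4 library was above every day 3 library in log2 RPKM, although the largest day 3 library was deeper than any day 4 library. The fitted changes were 5.76 (SE 0.83, adjusted p = 0.000127) for Hoxc10, 5.93 (SE 1.04, adjusted p = 0.000513) for Hoxd10 and 6.28 (SE 0.95, adjusted p = 0.000142) for Hoxd11. These sizes depend on the value listed for no reads. With the reads of a day pooled over its libraries, Hoxd11 was 379 times higher at day 4 (95% exact counting interval 104 to 3133), Hoxd10 722 times (129 to 28571) and Hoxc10 75.1 times (43.7 to 142), and these intervals cover counting error only. Other same-strand genes cover 5.73% (Hoxd10, by Gm28309), 10.8% (Hoxd11, by Gm28309) and 8.70% (Hoxc10, by Hoxc5) of their exon bases.

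Hoxa10 had 11, 4, 17 and 1 reads at day 3 and 184, 166, 70 and 10 at day 4. Its log2 RPKM of -3.70, -2.56, -0.28 and -3.51 rose to 1.97, 2.40, 0.52 and -1.67 (change 3.32, SE 0.97, adjusted p = 0.0159), and day 4 replicate 4 overlapped with day 3. Hoxa11 had 0 reads in all 4 libraries of day 3 and 75, 67, 24 and 0 reads at day 4. Its change of 3.95 (SE 1.20) had an adjusted p of 0.0176 and, from the pooled reads, the level was at least 69.3-fold higher, taking 3 reads over the 4 day 3 libraries as the floor. The rise rests on replicates 1 to 3, and exons of the antisense gene Hoxa11os cover 35.0% of the exon bases of Hoxa11, so that without strand the transcripts cannot be told apart. Without day 3 replicate 1 or day 4 replicate 1 neither Hoxa10 nor Hoxa11 passed the test, and Hoxa11 also did not without day 4 replicate 2. Both calls were also lost with log2(RPKM + 1) (limma, adjusted p = 0.0782 for Hoxa10 and 0.0867 for Hoxa11). The same held with low values raised to a common floor (adjusted p = 0.0673 for each), so these calls depend on the value listed for no reads. Hoxc11 had 0 reads in all day 3 libraries and 6, 25, 0 and 0 at day 4, and did not pass (change 1.50, SE 1.11, adjusted p = 0.438).

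**Figure D2:**
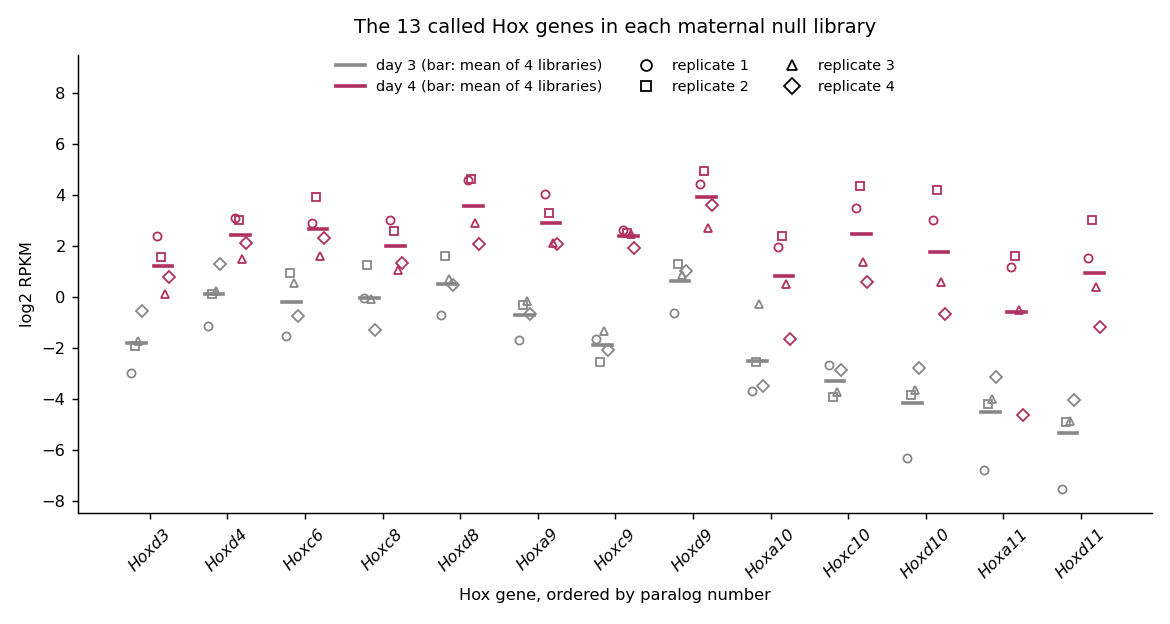
Log2 RPKM of the 13 Hox genes that rose, ordered by paralog number, in each of the 4 day 3 libraries (grey) and 4 day 4 libraries (red) of maternal null cells, with symbols for the replicate and bars for the mean of 4 libraries. Of the 13 genes 10 do not overlap between the days, and from Hoxa10 to Hoxd11 day 4 replicates 1 and 2 lie above replicates 3 and 4.

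The windows before the starts of these genes were read from the RefSeq table of GRCm38.p6, which had an entry for 9 of the 13 Hox genes that rose, and for 45 of all 73 genes. The windows of 4 genes are given, Hoxd11 and Hoxd10 for the steepest rises, Hoxd4 for a moderate rise and Nkx1-2 for the steepest fall among the factors. Each runs 5′ to 3′ on the strand of the gene over the 250 bases before a start. Capitals mark TTTATG, which the CDX factors can bind, and CAGAC, which SMAD proteins can bind, both also sought on the other strand as CATAAA and GTCTG, and the letters of these motifs do not overlap each other here. Hoxd11 is shown at the first of its 2 listed starts (chr2:74679308-74679557, plus strand), Hoxd10 at chr2:74691641-74691890 (plus strand), Hoxd4 at chr2:74721728-74721977 (plus strand) and Nkx1-2 at chr7:132599638-132599887 (minus strand).
Hoxd11: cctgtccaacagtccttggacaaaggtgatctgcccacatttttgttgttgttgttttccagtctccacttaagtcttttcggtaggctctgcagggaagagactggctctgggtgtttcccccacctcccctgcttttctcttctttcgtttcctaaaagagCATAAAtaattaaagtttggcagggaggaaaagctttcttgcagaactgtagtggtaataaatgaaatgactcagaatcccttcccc
Hoxd10: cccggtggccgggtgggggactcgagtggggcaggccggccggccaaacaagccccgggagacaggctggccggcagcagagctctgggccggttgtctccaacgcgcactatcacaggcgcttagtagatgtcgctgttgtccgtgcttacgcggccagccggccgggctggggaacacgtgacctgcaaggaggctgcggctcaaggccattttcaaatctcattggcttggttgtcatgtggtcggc
Hoxd4: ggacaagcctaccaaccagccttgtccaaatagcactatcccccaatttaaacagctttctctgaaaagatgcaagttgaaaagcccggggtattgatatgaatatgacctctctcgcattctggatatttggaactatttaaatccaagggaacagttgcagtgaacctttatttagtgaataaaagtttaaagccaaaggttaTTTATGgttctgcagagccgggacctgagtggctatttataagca
Nkx1-2: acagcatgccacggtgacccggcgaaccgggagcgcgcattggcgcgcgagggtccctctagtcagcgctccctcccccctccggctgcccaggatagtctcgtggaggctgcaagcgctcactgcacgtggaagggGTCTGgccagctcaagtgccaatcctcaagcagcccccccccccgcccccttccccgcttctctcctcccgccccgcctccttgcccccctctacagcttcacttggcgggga

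TTTATG was found before a start of 3 of the 9 Hox genes that rose and had an entry (Hoxd3, Hoxd4 and Hoxd11), of 2 of the 13 other Hox genes with an entry, and in 10.8% of all 32851 windows of the table. CAGAC was found for 1 of these 9 genes (Hoxa10) and for 6 of the 13 other Hox genes, against 42.2% of all windows. The Hoxd10 window holds neither. It has 20 CpG dinucleotides and the Nkx1-2 window 19, against 3 in that of Hoxd4 and 2 in that of Hoxd11. The second listed start of Hoxd11 (chr2:74682073-74682322, plus strand) has a window with 20 CpG and neither motif. Of the 7 factors that fell 5 had an entry, and CAGAC was found for 4 of them (Cdx2, Nkx1-2, Pou5f1 and Utf1) and TTTATG for 0. These matches only say which letters the windows hold.

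Beyond Hox11 no rise passed the test. Of the 6 Hox12 and Hox13 genes 0 passed limma, 0 had an unadjusted p under 0.05 and 0 passed with voom weights, and their median change was -0.21. Hoxc12 had 0 reads in all 8 libraries, which allows up to 3 reads in each, so no change could be seen in it. Hoxd13 had 53, 41, 6 and 1 reads at day 3 and 48, 59, 15 and 5 at day 4, with log2 RPKM of -1.04, 1.19, -1.38 and -3.11 against 0.43, 1.31, -1.30 and -2.27 (change 0.63, SE 0.97, adjusted p = 0.665). Hoxa13, a gene of the tail tip and limb, had 15, 4, 4 and 2 reads and then 52, 13, 0 and 1, so the libraries of day 4 lay on both sides of those of day 3. Its log2 RPKM of -2.85, -2.16, -1.96 and -2.10 became 0.55, -0.87, -5.35 and -4.58 (change -0.30, SE 1.10, adjusted p = 0.812), and the sign depends on the value given to no reads. Hoxb13 had 15, 1, 0 and 0 reads and then 2, 3, 2 and 0, with log2 RPKM of -2.69, -3.99, -3.95 and -3.09 against -3.99, -2.82, -4.04 and -4.57 (change -0.42, SE 0.65, adjusted p = 0.665).

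Read by cluster rather than by number, 6 of 9 HoxD genes, 4 of 9 HoxC genes, 3 of 11 HoxA genes and 0 of 10 HoxB genes rose, beside 33.3% over all Hox genes. For HoxB, 0 genes had an unadjusted p under 0.05 and 0 passed with voom weights. The median change was 3.00 for HoxD, 1.50 for HoxC, 0.59 for HoxA and 0.52 for HoxB. Within paralogs 3 to 9, where every cluster has members, all 4 HoxD genes were called and 0 of 7 HoxB genes, with median changes of 3.02 and 0.69. The HoxB changes in that range ran from -0.36 to 0.87, below the lowest HoxD change of 2.30. These sets are not matched by paralog number, since HoxD has only Hoxd3, Hoxd4, Hoxd8 and Hoxd9 there, while HoxB also has Hoxb5, Hoxb6 and Hoxb7. Hoxd3 and Hoxd4 share exon bases and are not independent results. Whether clusters differ was not tested. Several HoxB genes were already well expressed at day 3, with 4.06 for Hoxb1, 3.18 for Hoxb9 and 2.30 for Hoxb8 as mean log2 RPKM, against 0.85 for Hoxd1 as the highest mean of HoxD.

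The share of each class in the summed RPKM of all Hox genes shows the same step in every library and does not depend on how a gene without reads is listed. Hox1-4 genes made up 63.8%, 60.8%, 53.9% and 73.9% of Hox RPKM in the 4 day 3 libraries and 35.0%, 29.5%, 24.2% and 36.1% at day 4. Hox5-9 genes made up 34.1%, 36.9%, 43.9% and 25.3% and then 52.6%, 51.8%, 65.7% and 60.5%. Hox10-13 genes went from 2.08%, 2.30%, 2.21% and 0.816% to 12.5%, 18.7%, 10.1% and 3.42%. None of the 3 classes overlapped between the days. Within the Hox1-4 class, Hox1 genes alone went from 45.9% ± 6.54 to 14.3% ± 2.80 of Hox RPKM (SD, n = 4 each). The whole class went from 63.1% to 31.2% on average, so its fall in share lay mostly in its Hox1 genes. Summed RPKM of the Hox1-4 class was 67.4 ± 24.9 at day 3 and 61.2 ± 36.8 at day 4 (SD, n = 4 each), with overlapping libraries. These shares are a description with no test. Total Hox RPKM was 63.1, 155, 98.7 and 111 at day 3 and 252, 326, 85.3 and 110 at day 4, so that the totals overlapped, with day 4 replicates 1 and 2 above and replicates 3 and 4 within the range of day 3.

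**Figure D3:**
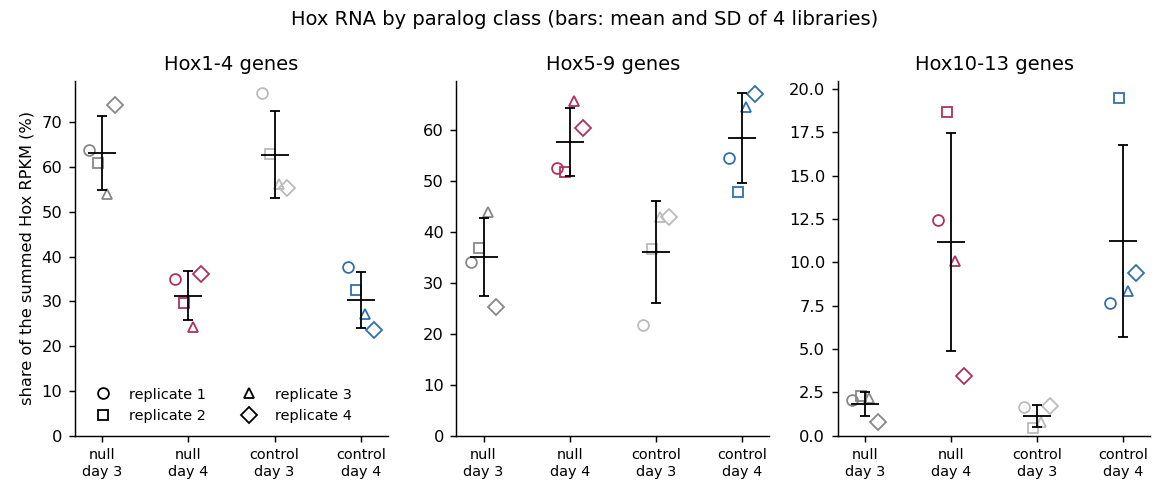
Share of the summed Hox RPKM (%) held by Hox1-4, Hox5-9 and Hox10-13 genes in each library of maternal null and control cells at day 3 and day 4, with symbols for the replicate and bars for the mean and SD of 4 libraries. In maternal null cells the share of Hox1-4 genes fell from 63.1% to 31.2% on average and that of Hox5-9 genes rose from 35.0% to 57.6%, with no overlap between the days in either class.

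By mean level per length, Hoxb1 was at 4.06 ± 0.55 (SD, n = 4, log2 RPKM) and Hoxb9 at 3.18 ± 0.72 at day 3. At day 4 Hoxb9 (4.05 ± 0.32) and Hoxd9 (3.91 ± 0.97) led, followed by Hoxd8 (3.55 ± 1.27). Each pair of neighbours among these 3 genes at day 4 differed by less than their SD over libraries, so this order is not firm.

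Of the 34 factors, 7 fell (20.6%) and 1 rose (2.94%) at an adjusted p under 0.05. In 8 of the 34 (23.5%) every day 4 library lay below every day 3 library, and in 0 (0.0%) every day 4 library lay above. The median change over the 34 factors was -0.92. The factor calls are less stable than those of the Hox genes. Leaving out 1 library at a time gave between 1 and 13 calls, with 1 call each without day 3 replicate 3 or day 4 replicate 1 and 13 without day 4 replicate 2, and 0 of the 8 calls held in every alternative, against 9 of the 13 Hox calls. In line 1 alone (replicates 1 to 3) 0 factors passed limma, with 9 falling and 1 rising at an unadjusted p under 0.05, while 13 Hox genes passed. The 13 Hox genes passing there included Hoxc11 and not Hoxc8 (limma, adjusted p = 0.192). In that fit all called Hox genes had the same standard error (1.00), while those of the called factors, fitted separately, ran from 0.53 (Pou5f1) to 1.00 (Wnt5a). Spread was thus treated differently for Hox genes and factors, so their counts in line 1 are not a like comparison. All 8 called factors kept their direction in line 1 and between the single libraries of line 2. All 13 called Hox genes kept theirs in line 1 and 12 between the single libraries of line 2. The exception was Hoxa11 (-1.48), which had 0 reads in both of those libraries.

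Of the 3 core pluripotency factors 2 fell. Pou5f1 (Oct4), the POU factor of pluripotent cells, was at 7.71, 7.02, 7.01 and 7.49 at day 3 and at 5.22, 4.81, 5.48 and 5.87 at day 4 in log2 RPKM, without overlap (change -1.97, SE 0.47, adjusted p = 0.0243). At 42.1 ± 12.8 RPKM (SD, n = 4) at day 4 only Ctnnb1 and T were higher among the factors. Exons of the antisense gene Gm19553 cover 14.1% of its exon bases. Sox2, shared by pluripotent cells, NMPs and neural progenitors, went from 3.23, 4.51, 4.54 and 4.13 to 1.59, 2.76, -0.29 and 2.12, also without overlap (change -2.56, SE 0.67, adjusted p = 0.0264). Nanog was at 4.21, 4.21, 3.11 and 4.72 and then at 3.94, 2.94, 0.75 and 2.44, and did not pass (change -1.55, SE 0.69, adjusted p = 0.109).

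Among 11 naive pluripotency genes 1 fell and 0 rose, with a median change of -0.96. The one that fell was Gdf3, a TGF-beta family ligand, from 2.92, 2.41, 2.54 and 1.17 to -0.17, 1.46, -0.59 and 0.09 (change -2.06, SE 0.60, adjusted p = 0.0290). The groups of Gdf3 overlapped in 1 library of each day. Klf2 was at 1.19, 1.39, 1.21 and 0.78 and then at -0.41, 1.28, -2.46 and -1.16 (change -1.83, SE 0.71, adjusted p = 0.0716). Dppa3 was lower in every day 4 library (change -1.30, SE 0.52, adjusted p = 0.0754), and Esrrb changed by -1.29 (SE 0.49, adjusted p = 0.0715), without passing. Of the other members, Zfp42 (-0.96), Sall4 (-0.58), Nr0b1 (-1.84) and Tfcp2l1 (-0.40) had negative changes and 3 had positive changes, none of which passed. Tbx3, a T-box factor also used outside the pluripotent state, was at -0.52, 0.42, 0.87 and -1.72 and then at 0.93, 2.54, 1.53 and -1.01 (change 1.24, SE 0.80, adjusted p = 0.267). Klf4 was at 0.25, 0.83, 1.67 and -0.24 and then at 0.52, 2.78, 1.91 and 0.70 (change 0.85, SE 0.65, adjusted p = 0.344). For Klf5 the values were 2.52, 3.79, 3.87 and 2.86 and then 3.23, 3.86, 4.22 and 4.03 (change 0.57, SE 0.51, adjusted p = 0.408).

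Of the 3 formative or primed epiblast genes, Utf1 fell with overlapping groups (change -2.0, SE 0.66, adjusted p = 0.0458), and the Nodal co-receptor Tdgf1 was lower in every day 4 library without passing (change -1.70, SE 0.60, adjusted p = 0.0595). Foxd3, a forkhead factor of the epiblast and neural crest, had 3, 0, 1 and 1 reads at day 3 and 0 in all 4 day 4 libraries. Its log2 RPKM of -5.08, -4.22, -3.87 and -3.02 against -5.21, -4.63, -5.26 and -4.65 is set by these few reads (adjusted p = 0.238), so that its level was at the limit of detection on both days. With voom weights on the reads Foxd3 passed as a fall.

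The caudal epiblast and NMP list held both the steepest fall and the only rise among the factors. Of its 8 members 3 fell, 1 rose and 4 did not pass, with a median change of -1.20 beside -0.92 over all factors. Nkx1-2, a homeobox gene of the caudal epiblast on chromosome 7, was at 4.75, 6.50, 4.11 and 5.40 at day 3 and at 0.96, 2.37, -1.02 and 0.87 at day 4, without overlap (change -4.39, SE 0.75, adjusted p = 0.00327). In RPKM it went from 44.2 ± 32.4 (SD, n = 4) to 2.36 ± 1.98 (SD, n = 4), and it passed the test in 17 of 18 alternatives, the exception being line 1 alone (adjusted p = 0.0754). The antisense gene Gm16764 covers 16.6% of its exon bases. Cdx1 and Cdx2 encode caudal homeodomain factors known to activate trunk Hox genes. Cdx1 went from 5.48, 6.65, 6.29 and 6.62 to 3.55, 5.0, 2.58 and 4.73 (change -2.29, SE 0.62, adjusted p = 0.0264). Cdx2 changed by -1.46 (SE 0.48, adjusted p = 0.0458), from 5.81 ± 0.36 (SD, n = 4) to 4.34 ± 0.51 (SD, n = 4). Both Cdx genes were lower in every day 4 library, yet at 19.1 ± 12.2 and 21.2 ± 6.26 RPKM (SD, n = 4 each) they were still well expressed.

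Gbx2, a homeobox gene of the caudal epiblast and of the midbrain-hindbrain border, was at 3.56, 4.40, 4.09 and 3.71 and then at 2.88, 3.19, -2.21 and 1.03. All day 4 libraries were lower, but with the wide spread at day 4 the adjusted p was 0.0661 (change -2.72, SE 1.0). Gbx2 passed as a fall with log2(RPKM + 1) (adjusted p = 0.0447), with 1 limma fit over all groups (adjusted p = 0.00903), with voom weights (adjusted p = 0.0240) and without day 4 replicate 2 (adjusted p = 0.0178), and the adjusted p reached 0.194 in line 1 alone. For Gbx2, 43.5% of its exon bases are shared with an antisense gene. T itself was at 6.87, 7.39, 6.22 and 7.48 and then at 6.05, 5.70, 5.48 and 6.96, and did not pass (change -0.94, SE 0.53, adjusted p = 0.216). Of the 4 NMP markers, Sox2, Nkx1-2 and Cdx2 thus passed as falls, while T at 71.9 ± 36.4 RPKM (SD, n = 4) was the second highest factor at day 4 after Ctnnb1. The call held in 8 of 18 alternatives for Cdx2 and in 13 for Sox2, against 17 for Nkx1-2, so that of Cdx2 is not firm. Among the other called factors, those of Utf1, Gdf3 and Pou5f1 held in 10, 11 and 12 alternatives, and those of Cdx1 and Wnt5a in 13.

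Of the secreted signals of this list 1 rose. Wnt5a, a ligand of the tailbud that acts largely without beta-catenin, rose from -0.90, 1.43, -1.16 and -1.31 to 3.47, 3.06, 0.56 and 2.25 (change 2.82, SE 0.78, adjusted p = 0.0264). The overlap came from day 3 replicate 2 and day 4 replicate 3. Wnt3a, which drives the canonical pathway in the tailbud, changed by -0.85 (SE 0.71, adjusted p = 0.396). Fgf8 had almost no mean change (0.04, SE 1.30), yet ranged from -0.38 to 6.90 over the 4 day 4 libraries. The order of the day 4 libraries for Fgf8, with replicate 4 highest and replicate 2 lowest, is the reverse of that for Hoxc10, Hoxd10 and Hoxd11.

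Of the 9 remaining genes 0 passed limma, 0 had an unadjusted p under 0.05 and 0 passed with voom weights. They include the Wnt pathway components Ctnnb1 (change -0.15, SE 0.48), Gsk3b (0.32, SE 0.49) and the target Axin2 (-0.48, SE 0.64). Dkk1, a secreted Wnt inhibitor, was at 0.57, 3.74, 2.31 and 1.17 and then at 3.15, 5.91, 2.15 and 0.40 (change 0.95, SE 1.06, adjusted p = 0.529), and its change was -0.052 without day 4 replicate 2.

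**Figure D4:**
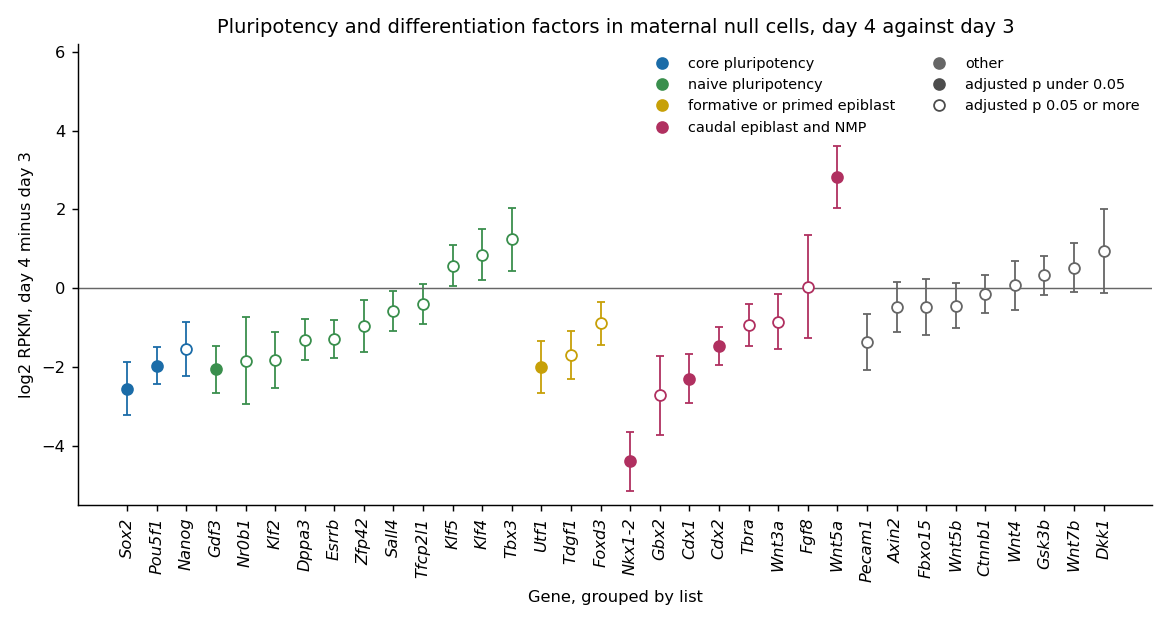
Change of log2 RPKM from day 3 to day 4 in maternal null cells for the 34 factors, grouped by gene list, with bars of 1 standard error from limma and filled points for an adjusted p under 0.05. Nkx1-2 is lowest at -4.39 and Wnt5a highest at 2.82, and all 3 core pluripotency genes lie below 0.

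Whether this step differed from that of control cells was tested as the difference of the changes, maternal null minus control, over all 16 libraries. It passed for 0 of 39 Hox genes (0.0%, limma) and 0 of 34 factors (0.0%, limma), with 1 Hox gene and 0 factors at an unadjusted p under 0.05, and limma with voom weights also gave 0 in both. The design had limited power, since the standard error of the difference ran from 0.99 to 2.06 over the Hox genes and from 0.54 to 1.75 over the factors. All 13 Hox genes that rose in maternal null cells had a positive change in control cells and all 8 called factors kept their sign. Over the whole tables the sign was the same in both genotypes for 31 of 39 Hox genes and 32 of 34 factors. For 12 of the 13 Hox genes the change was numerically smaller in maternal null than in control cells, the exception being Hoxd9 with 3.28 in both. For none of the 13 did the difference pass the test. Over all Hox genes the control change was the higher one in 32 of 39, so this is not particular to the called genes.

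The gene with the smallest p for the difference was Hoxa13. Its log2 RPKM in control cells was -3.22, -6.54, -2.54 and -3.36 at day 3 and 0.12, -0.73, -0.86 and -2.26 at day 4, a change of 2.98 against -0.30 in maternal null cells (difference -3.28, SE 1.56, adjusted p = 0.998). All 4 control libraries of day 4 were above those of day 3, where Hoxa13 had 14, 1, 0 and 1 reads. Of the 4 maternal null libraries of day 4, 2 had 0 or 1 reads. Depth over all 16 libraries ran from 2.11 to 73.9 M counted reads, so the low values of both genotypes depend in part on depth. Hoxc6 came next, with -2.90, 0.75, -1.35 and 0.00 and then 3.31, 5.10, 3.71 and 2.31 in control cells (difference -1.59, SE 1.26, adjusted p = 0.998). Hoxb13 followed (difference -1.23, SE 1.37, adjusted p = 0.998). Among the factors the smallest p values belonged to Klf2 (difference 1.57, SE 1.21), Pou5f1 (0.69, SE 0.67) and Gdf3 (0.67, SE 0.80), each with an adjusted p of 0.991. Hox class shares were also close, with Hox1-4 at 31.2% ± 5.47 of Hox RPKM in maternal null and 30.3% ± 6.23 in control cells at day 4 (SD, n = 4 each).

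**Figure D5:**
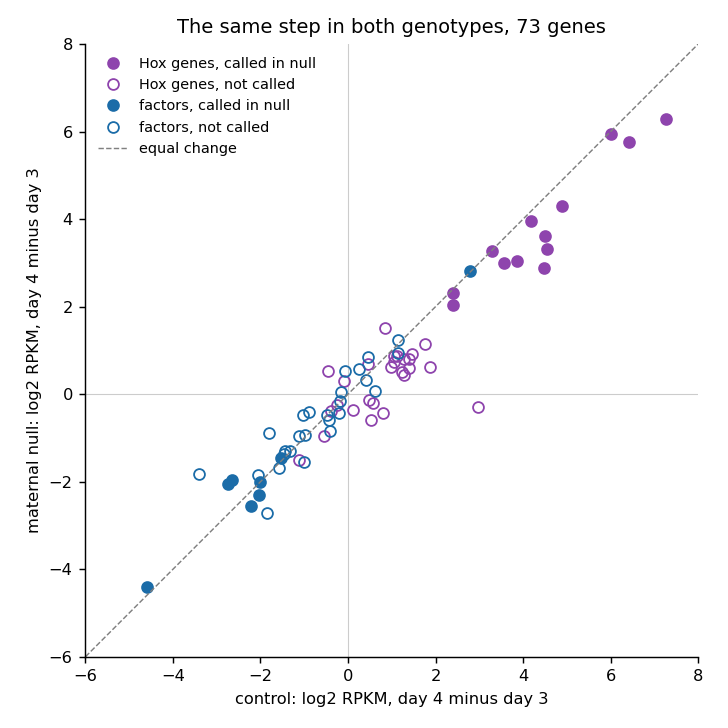
Change of log2 RPKM from day 3 to day 4 in maternal null cells (vertical axis) against control cells (horizontal axis) for the 39 Hox genes and 34 factors, with filled points for genes called in maternal null cells and a dashed line for equal changes. The called Hox genes lie above 0 on both axes, from 2.03 for Hoxc8 to 6.28 for Hoxd11 on the vertical one, and Hoxa13 is the point farthest below the line.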

How the data were processed

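RNA was polyA-selected and sequenced as 75 bp single-end reads from TruSeq stranded or non-stranded libraries, the kit of each library not being stated. The authors trimmed reads (Trim Galore 0.4.4), aligned them with HISAT2 2.0.5 to GRCm38 and deposited log2 RPKM values from SeqMonk, corrected for library size and transcript length. Columns were assigned to groups by the labels. Day 4 was compared with day 3 by limma 3.58.1 (R 4.3.3) in each table separately, with Benjamini-Hochberg adjustment over the table, and between genotypes by the interaction term over 16 libraries. Single genes also had an exact permutation test of 4 against 4, whose smallest p is 0.0286. Among the called genes its unadjusted p was 0.114 for Hoxa11, 0.0857 for Utf1, and 0.0571 each for Hoxa10, Hoxc8, Wnt5a and Gdf3. For the other called genes it was 0.0286. Whole reads were recovered from the values and exon lengths for all 73 genes in all 16 libraries (tolerance 0.02 reads), and voom on them was added after seeing the data. Of 24 replicate pairs, 0 agreed within sampling noise. Scripts were tested on simulated data. Per-library values are given for the leading gene of each paralog group, the 12 Hox genes of smallest p, the 5 largest rises and falls of the factors, 5 state markers and the 3 smallest interaction p of each table, and any other gene was chosen after its values were seen. The values of 1 gene of the Hox table are not reported here. The genes, lists and motifs were chosen with earlier results of these data known.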

Additional observations from a re-analysis of the deposited data

Results flagged for a closer look

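Of 70 groups of 4 libraries examined for a library standing apart by Dixon's ratio, 3 were past the 95% limit, and chance alone marks about 1 group in 20. Wnt5a in day 3 replicate 2 was at 1.43 log2 RPKM while the other libraries of that day lay between -1.31 and -0.90. The mean log2 RPKM of the 12 Hox10-13 genes in day 3 replicate 1 was -4.55, below the other 3 libraries of that day. The same library was the deepest, with 43.8 M counted reads while the others had between 3.48 and 7.22 M reads, and genes without reads are listed lower in deeper libraries. Its share of Hox RPKM from Hox10-13 genes, which does not use those listed values, was 2.08%, between those of the other libraries. Without day 3 replicate 1, Hoxd4, Hoxc8, Hoxa10 and Hoxa11 no longer passed the test.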

How the results depend on the processing

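The number of Hox genes called was 13 and lay between 9 and 13 when 1 library was left out. It was 7 with Hox genes of mean log2 RPKM above 0 only, where 23 genes were tested. The number of factors called was 8, ranged from 1 to 13 with 1 library left out, was 0 in line 1 only and 15 with the replicate number as a block (13 fell, 2 rose). The block was not taken as a pairing, because 1 of the 4 same-numbered maternal null pairs did not deviate together, with r of -0.13, 0.58, 0.60 and 0.54 over 54 genes and replicate 1 correlated best with replicate 4. In control cells these r were 0.24, 0.65, 0.31 and 0.30 over 53 genes. The block added Nanog, Esrrb, Klf2, Tdgf1, Dppa3 and Gbx2 as falls and Tbx3 as a rise. In the replicate block fit 12 Hox genes were called and 0 interactions passed. The mean change of the Hox10-13 genes was 2.20, and 0.81 with log2(RPKM + 1). Changes that turned sign, none of them past the test, were Hoxa13 (0.23 with log2(RPKM + 1), 0.24 with log2(RPKM + 0.1), 0.56 with a common floor, 0.43 in line 1 only), and, as ranges with 1 library left out, Hoxa13 from -1.33 to 0.63, Hoxa2 from -1.23 to 0.66, Hoxc12 from -1.14 to 0.082, Hoxd13 from -0.051 to 1.38 and Dkk1 from -0.052 to 1.78. The cause was not tested. Of the values of single named genes under the alternatives, 557 kept direction and side of the threshold, 41 lost and 11 gained the call and 10 changed sign. Of the 12 Hox10-13 genes 4 had 0 reads in all day 3 libraries, so that at most a lower bound of their fold could be given.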
